A study of Mus musculus with 9 samples.

Results

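Transcripts of 10 genes that raise, clear or read calcium in the egg were measured in mouse metaphase II (MII) oocytes. The genes were taken as a list by symbol (Itpr1, Itpr2, Camk2g, Cacna1h, Trpm7, Trpv3, Stim1, Orai1, Atp2a2 and Atp2b1), and 10 of 10 were matched among the 30153 genes of the series. All oocytes came from 4-week-old females of mixed genetic background and of 1 genotype, Sycp3CreERT2/+; Rosa26nT-nG/+. Sycp3CreERT2 places a Cre recombinase that tamoxifen activates under Sycp3, a gene of meiotic cells. The Rosa26nT-nG reporter makes red nuclear fluorescence until Cre recombines it, and green thereafter. Females received 5 IU PMSG and, 48 h later, 5 IU hCG, and oocytes were taken 13 h after hCG, stripped of cumulus cells and picked by hand on fluorescence. That choice made the 3 groups, GFP High, GFP Low and RFP, each with 3 libraries of pooled oocytes. A GFP High pool held 15, 15 or 16 oocytes, a GFP Low pool 49, 52 or 57, and an RFP pool 88, 87 or 100. Nothing in the labels says that the pools came from separate animals, so p-values measure the spread between these pools. Pool size and group cannot be told apart.

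The fertilised egg leaves metaphase arrest through repeated rises of cytosolic calcium. A sperm phospholipase makes IP3, IP3 opens receptors on the endoplasmic reticulum, and pumps then return calcium to the store or out of the cell, while channels of the plasma membrane bring calcium in to keep the store filled. Calcium bound to calmodulin activates CaMKII, which starts the loss of the metaphase block, and the same rises drive the exocytosis of cortical granules.

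Library totals ranged from 19381677 to 27746256 counts. All 12 oocyte markers on the list used here were detected, with a summed level of 7967 to 9281 CPM (counts scaled to the library total) per library. The 18 cumulus and granulosa markers summed to 111.9 to 216.0 CPM (GFP High), 140.5 to 158.7 (GFP Low) and 132.4 to 204.8 (RFP). Most of that sum came from Nr5a2 and Cyp19a1, whose means over the 9 libraries were 121.0 and 12.3 CPM. The sums hide differences between libraries in other markers. Tnfaip6 had 197, 0 and 3 counts (GFP High 1, 2 and 3), 129, 7 and 15 (GFP Low) and 28, 249 and 0 (RFP). Inha, Inhba, Ptx3 and Vcan were likewise highest of each group in GFP High 1, GFP Low 1 and RFP 2. Fshr, Cyp11a1, Star, Lhcgr and Has2 did not share this pattern. Nor did Nr5a2 and Cyp19a1, which by counts were highest of GFP Low in GFP Low 3. Ptgs2 followed it in GFP High and RFP but had 62 counts in both GFP Low 1 and GFP Low 3. Amh, Foxl2, Areg, Ereg and Cd44, with at most 22 counts in a library, did not share it either. GFP High 2 had 0 counts of Inha, Inhba, Ptx3, Tnfaip6 and Vcan, but 2486 of Nr5a2 and 169 of Cyp19a1. Its sum of 111.9 CPM thus rested mainly on genes outside the pattern, whose cell of origin was not tested. In pooled RNA, fewer cells of a type and less RNA per cell cannot be told apart. Of the 5 blood cell markers, the 1 that was matched, Ptprc, reached at most 10 counts in a library.

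The list holds very unequal levels. In FPKM, which divides counts by gene length and library total and so allows genes to be compared, the means over 9 libraries ran from 67.9 for Atp2a2 to 0.100 for Stim1. Atp2a2, the calcium pump of the endoplasmic reticulum, and Camk2g, a CaMKII subunit, stood highest, at 67.9 ± 9.83 and 67.3 ± 3.08 FPKM (SD, n = 9). They ranked 692 and 700 among 18483 protein-coding genes and did not differ beyond their spread, with Atp2a2 the higher in 6 of 9 libraries. Next came 3 genes that also overlapped: Itpr1 at 13.7 ± 1.51, Orai1 at 13.2 ± 1.92 and Itpr2 at 12.5 ± 0.508 FPKM (SD, n = 9). Atp2b1, a calcium pump of the plasma membrane, had 6.78 ± 1.31 FPKM, and Cacna1h, a T-type calcium channel, had 6.30 ± 1.16. Those levels overlapped, and both lay below Itpr2 in every library. The cation channels Trpm7 and Trpv3 had 3.26 ± 0.567 and 2.06 ± 0.595 FPKM, Trpm7 being higher in 8 of 9 libraries. For comparison, the median over the 12417 protein-coding genes with a mean of at least 10 counts was 3.77 FPKM. Stim1, the calcium sensor of the store membrane, lay apart from the other members, since its highest library (0.195 FPKM) was below the lowest of Trpv3 (1.16 FPKM).

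**Figure D1:**
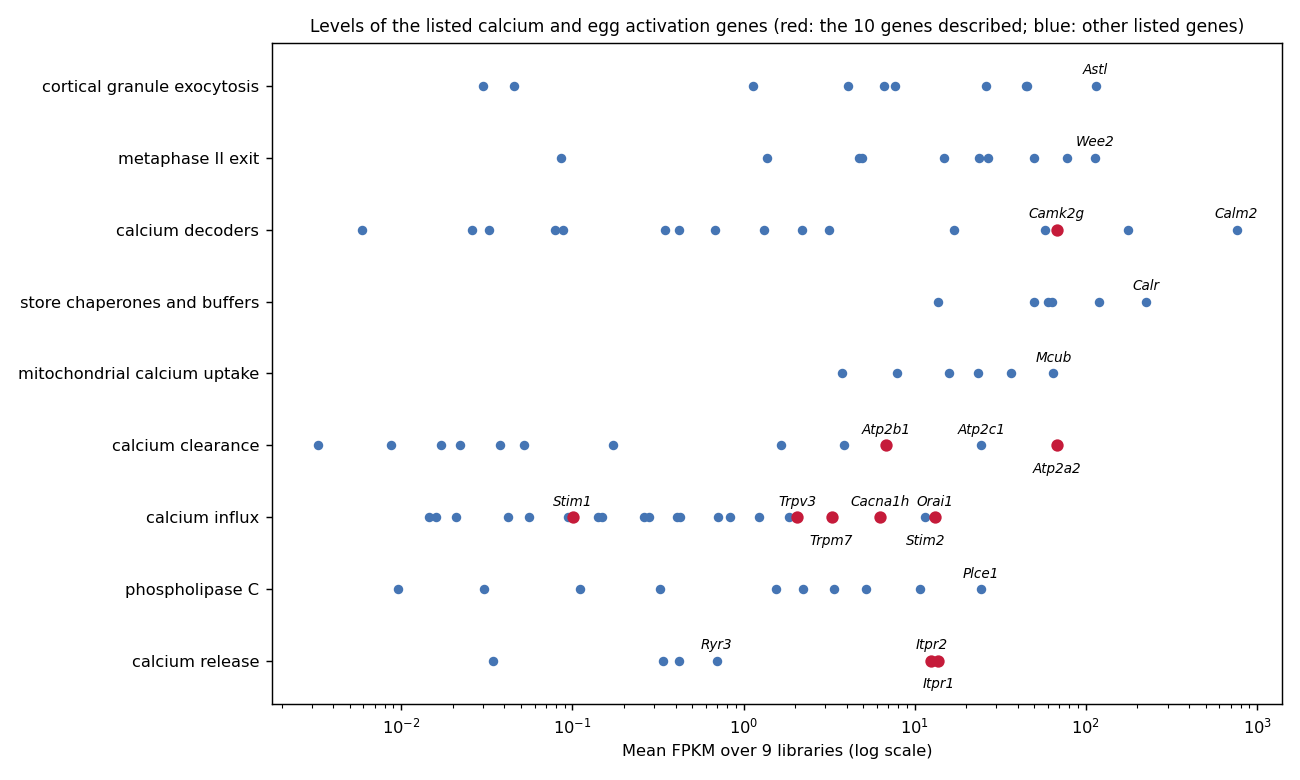
Mean level over 9 libraries, in FPKM on a logarithmic axis, of each listed calcium and egg activation gene, by role; red points are the 10 genes described and blue points the other listed genes, of which the highest of each role is named. Atp2a2 and Camk2g lie at 67.9 and 67.3 FPKM, and Stim1 lies at 0.100 FPKM among the lowest influx genes.

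Each of these genes belongs to a family of related genes, and the share of a family's summed FPKM was used to ask which relative the egg transcript pool holds. Camk2g took 99.8% ± 0.126 of the CaMKII transcripts (SD, n = 9), with Camk2d at 0.132% and Camk2a and Camk2b below it. Atp2a2 took 99.98% ± 0.0253 of the SERCA transcripts, as Atp2a1 and Atp2a3 had at most 3 counts in any library, the limit of detection used here. Orai1, the pore of the store-operated channel, took 94.0% ± 1.83 of its family, and Orai3 most of the rest (5.92% ± 1.96). In the STIM family the member was the minor gene: Stim2 took 99.1% ± 0.525 of the STIM transcripts and Stim1 only 0.856% ± 0.525. Stim2 had 11.5 ± 0.982 FPKM, 58.4 to 262.0 times the level of Stim1 in the 8 libraries where Stim1 had counts.

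The other families were shared more evenly. Itpr1 and Itpr2 held 51.3% ± 3.43 and 47.1% ± 3.45 of the IP3 receptor transcripts, and Itpr3 held 1.58% ± 0.626 (SD, n = 9). Among plasma membrane pumps Atp2b1 held 54.1% ± 5.53, Atp2b3 31.1% ± 4.51 and Atp2b4 13.4% ± 1.57. Cacna1h held 76.5% ± 6.60 of the T-type channel transcripts, with Cacna1i at 22.5% ± 6.78. Trpm7, a channel fused to a kinase, held 88.2% ± 6.63 beside Trpm6. Trpv3 held 55.8% ± 16.3 of the TRPV transcripts and Trpv2 32.3% ± 13.5.

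No share differed between groups by more than the spread between libraries. An exact permutation test took p as the share of 1680 assignments of the 9 libraries whose F statistic was at least that observed. This test gave raw p from 0.243 (T-type channels) to 0.946 (TRPV channels), and the smallest of the 9 adjusted p-values was 0.884. The Trpv3 share was the least reproducible: it was 25.5%, 81.4% and 64.6% for GFP High 1, 2 and 3, and ranged from 40.9% to 65.3% over the GFP Low libraries and from 47.5% to 64.4% over the RFP libraries. FPKM rests on the deposited gene length, which equals the summed length of all annotated exons for 10 of 10 members, so a gene whose egg transcript is shorter is listed too low.

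**Figure D2:**
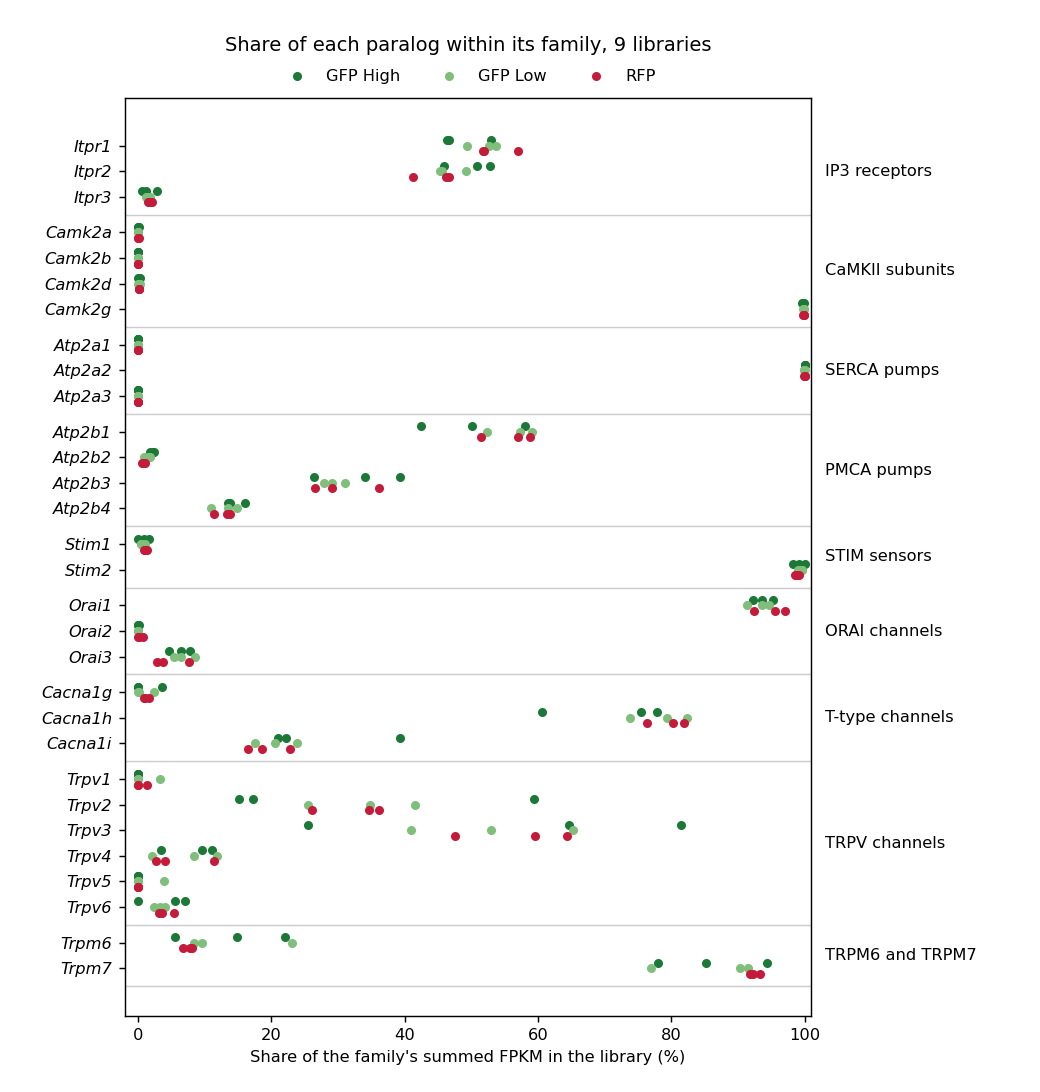
Share of each gene, in percent, of the summed FPKM of its family in every library, with 3 points per group (dark green GFP High, light green GFP Low, red RFP). Camk2g and Atp2a2 sit near 100% and Stim1 near 0.856%, while Itpr1 and Itpr2 lie side by side at means of 51.3% and 47.1%.

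The calcium release channels were abundant in every library. Itpr1 (chromosome 6, 108213096 to 108551109, plus strand, GRCm38) had 215.4, 208.3 and 263.4 CPM for GFP High 1, 2 and 3. The GFP Low libraries gave 258.1, 271.7 and 240.9 CPM, and the RFP libraries 262.5, 243.4 and 294.8. GFP High 1 and 2 were the lowest of the 9 libraries, while GFP High 3 lay among the others, so the groups overlapped. The log2 fold change of GFP High against RFP was -0.22 (SE 0.12), a fold of 0.861 with a 95% interval of 0.717 to 1.03 (edgeR quasi-likelihood adjusted p = 0.997).

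Itpr2 (chromosome 6, 146108299 to 146502223, minus strand) was the steadiest of the 10 members. It had 191.5, 190.8 and 184.3 CPM (GFP High), 180.5, 185.2 and 194.5 (GFP Low) and 190.6, 175.2 and 172.3 (RFP). All 9 values lay within 172.3 to 194.5 CPM, and the groups overlapped. GFP High against RFP gave a fold of 1.06 with a 95% interval of 0.912 to 1.22. The ratio of Itpr1 to Itpr2 in FPKM was 0.909 and 0.882 in GFP High 1 and 2 and between 1.00 and 1.38 in the other 7 libraries.

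**Figure D3:**
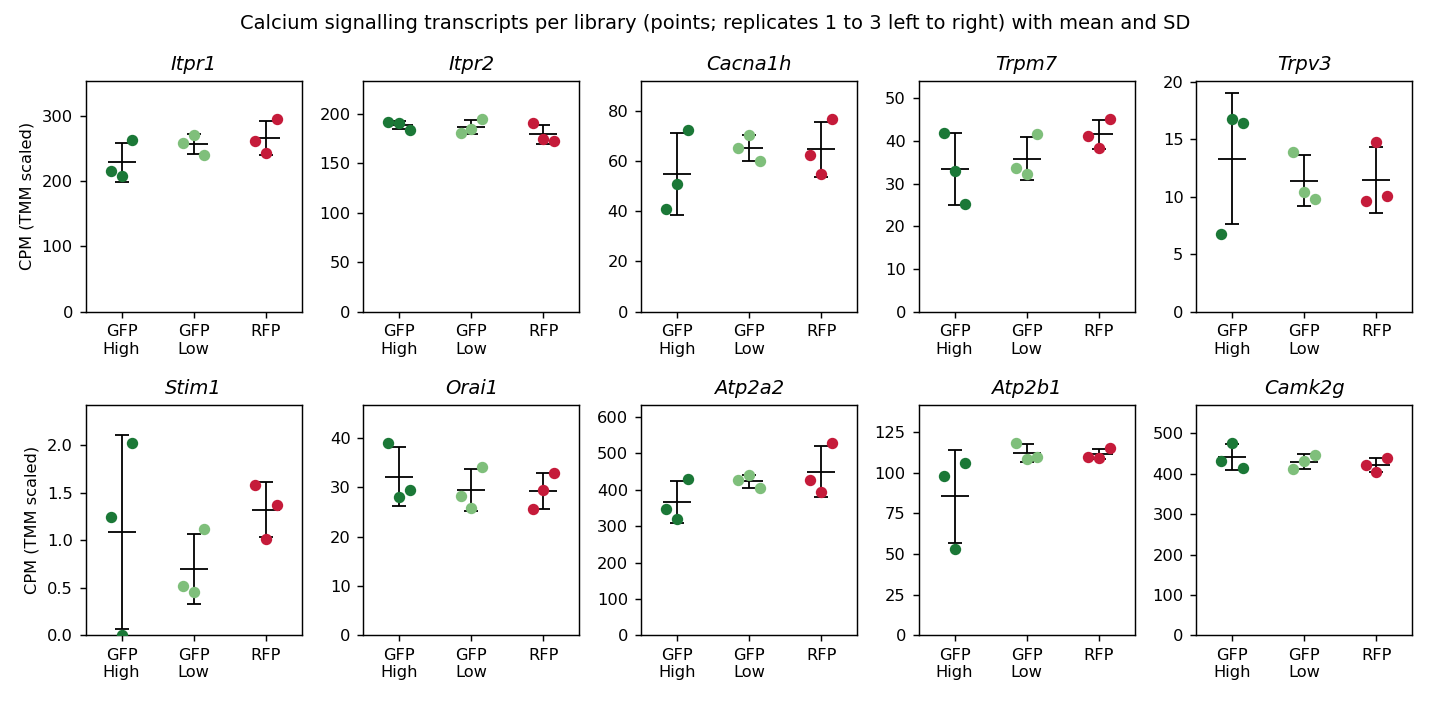
CPM scaled by TMM for the 10 genes in each library, with the mean and SD (n = 3) of each group as a bar; every axis starts at 0. Itpr2 and Camk2g are nearly level across the 9 libraries, and Atp2b1 has 1 low point, GFP High 2 at 53.0 CPM.

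Among the influx genes of the plasma membrane, Cacna1h (chromosome 17, 25374285 to 25433783, minus strand) carries the T-type current of the mouse egg. Its levels were 40.7, 51.03 and 72.5 CPM (GFP High), 65.1, 70.2 and 60.0 (GFP Low) and 62.4, 55.0 and 76.5 (RFP). GFP High 1 and 2 were again lowest and GFP High 3 the second highest. Against RFP, GFP High was at a fold of 0.850 with a 95% interval of 0.610 to 1.19.

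Trpm7 (chromosome 2, 126791565 to 126876230, minus strand) conducts calcium, magnesium and zinc. It had 42.0, 33.0 and 25.1 CPM (GFP High), 33.7, 32.3 and 41.6 (GFP Low) and 41.2, 38.4 and 45.0 (RFP). The lowest value was in GFP High 3, the library that was highest of its group for Itpr1 and Cacna1h. The groups overlapped, with folds of 0.806 (95% interval 0.593 to 1.10) in GFP High and 0.865 (0.708 to 1.06) in GFP Low against RFP.

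Trpv3 (chromosome 11, 73267388 to 73300363, plus strand), a channel recorded in mature mouse eggs, had 6.72, 16.7 and 16.4 CPM in GFP High. GFP Low had 13.9, 10.4 and 9.80 CPM, and RFP had 9.62, 14.8 and 10.02. GFP High held both the lowest and the 2 highest of the 9 values. Its 95% interval for GFP High against RFP ran from 0.656 to 2.06-fold, the widest of any member but Stim1.

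Store-operated entry needs a sensor, STIM, and a pore, ORAI. Stim1 (chromosome 7, 102267806 to 102437319, plus strand) was counted 34, 0 and 45 times (GFP High), 10, 12 and 31 times (GFP Low) and 42, 23 and 37 times (RFP). The count of 0 in GFP High 2 allows up to 3 counts, or 0.120 CPM, counting error only. The other 8 libraries held 10 to 45 counts, and the groups overlapped. The 95% interval ran from 0.108 to 6.30-fold for GFP High against RFP and from 0.220 to 1.29-fold for GFP Low against RFP, so neither comparison resolved a difference.

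Orai1 (chromosome 5, 123015074 to 123030456, plus strand) had 38.9, 27.9 and 29.5 CPM (GFP High), 28.2, 25.8 and 34.1 (GFP Low) and 25.5, 29.5 and 32.9 (RFP). GFP High 1 was the highest library, and the groups overlapped. The fold of GFP High against RFP was 1.10 (95% interval 0.817 to 1.48).

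Orai1 starts next to a noncoding gene on the other strand, Gm2479, and the sequence between their RefSeq starts is shown because both genes were counted. In RefSeq on GRCm38.p6 the start of Orai1 (chromosome 5, base 123015074) and the start of Gm2479 (base 123015027) point away from each other with 46 bases between them. The 250 bases before the start of Orai1, chr5:123014824-123015073 on the plus strand, are printed 5′ to 3′ with those 46 bases in capitals.
Orai1 upstream: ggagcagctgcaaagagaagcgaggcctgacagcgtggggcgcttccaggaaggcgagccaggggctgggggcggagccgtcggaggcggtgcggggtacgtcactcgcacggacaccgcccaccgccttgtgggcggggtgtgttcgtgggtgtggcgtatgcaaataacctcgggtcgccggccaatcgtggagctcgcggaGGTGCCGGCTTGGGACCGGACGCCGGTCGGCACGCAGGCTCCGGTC
The stretch is 70.8% G or C with 30 CpG pairs. It holds 1 CCAAT, beginning 66 bases before the start, and 1 ATGCAAAT, beginning 90 bases before it, and no TATAAA (each searched on both strands; the motifs do not overlap). Among 32851 promoter windows of the same length, 33.9% held CCAAT, 1.60% ATGCAAAT and 12.4% TATAAA. Gm2479 was counted 735 to 1241 times per library, and per length its level was 2.26 to 3.70 times that of Orai1. In GENCODE, the annotation that matches the counted genes, Gm2479 instead starts at base 123015080, inside Orai1. The exons of the pair there share 7 bases, and no gap lies between the starts. Whether the reads were counted by strand is not given in the sources used here.

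Calcium clearance is represented by a pump of the store and a pump of the plasma membrane. Atp2a2 (chromosome 5, 122453513 to 122502225, minus strand), the SERCA pump that refills the store, had 347.7, 319.5 and 430.5 CPM in GFP High. The GFP Low libraries gave 425.9, 439.2 and 404.6 CPM, and the RFP libraries 427.1, 392.9 and 527.8. GFP High 1 and 2 were the lowest of all libraries, GFP High 3 lay within RFP, and RFP 3 was the highest. The log2 fold change of GFP High against RFP was -0.29 (SE 0.14), a fold of 0.818 with a 95% interval of 0.661 to 1.01. With 1 library left out it lay between -0.43 (without GFP High 3) and -0.17 (without RFP 3). Its unadjusted p of 0.0610 was the smallest of the members in this comparison and did not pass (edgeR quasi-likelihood adjusted p = 0.997).

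Atp2b1 (chromosome 10, 98914406 to 99026143, plus strand), which pumps calcium out of the cell, had 97.9, 53.0 and 105.8 CPM in GFP High. GFP Low had 118.2, 108.6 and 109.6 CPM, and RFP had 109.8, 109.3 and 115.3. Every GFP High library lay below every GFP Low and RFP library, with GFP High 2 the lowest and GFP High 3 nearest to the others. Replicates failed to overlap for 11.8% of genes tested in GFP High against RFP, and Atp2b1 was the 1 member among them. Of genes tested between GFP High and GFP Low the share was 11.5%, again with Atp2b1 as the 1 member. In GFP Low against RFP it was 7.68%, with 0 members. The fold was 0.770 (95% interval 0.549 to 1.08) against RFP and 0.764 (0.548 to 1.07) against GFP Low. Without GFP High 2 the log2 fold changes of -0.38 and -0.39 fell in size to -0.13 and -0.14.

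Camk2g (chromosome 14, 20734875 to 20794088, minus strand), the CaMKII gene whose product reads the calcium signal in eggs, had overlapping values in the 3 groups. It had 432.8, 475.7 and 413.1 CPM (GFP High), 411.6, 432.3 and 447.0 (GFP Low) and 420.7, 404.4 and 439.6 (RFP). GFP High 2, low for Atp2b1, Atp2a2 and Itpr1, was the highest library here. Folds were 1.05 (95% interval 0.916 to 1.202) for GFP High against RFP, 1.02 (0.916 to 1.14) for GFP Low against RFP and 1.03 (0.906 to 1.16) for GFP High against GFP Low.

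The 3 comparisons ask whether eggs of different reporter history differ in their transcripts at ovulation. GFP High against RFP called 0 of the 10 members in edgeR, against 0.0135% of all 14829 genes tested (2 genes). GFP Low against RFP called 0 of 10, against 0.0197% of 15199 genes (3 genes). GFP High against GFP Low also called 0 of 10, against 0% of 14785 genes. At an unadjusted p under 0.05 edgeR counted 0 of 10 in each comparison, where 4.09%, 2.62% and 3.77% of all genes tested fell below it. DESeq2 likewise found 0 members below either the adjusted or the unadjusted threshold in each comparison. Its Wald test p for Atp2a2 in GFP High against RFP, 0.0542, equalled the authors' deposited p. The DESeq2 run and the deposited p-values are thus not separate evidence. The limma-voom fit, adjusted over all genes, called 0, with 1 member (Atp2a2) at an unadjusted p under 0.05 when GFP High was set against RFP or against GFP Low. In the authors' deposited table the adjusted p-values of the members ran from 0.700 to 0.994 for GFP High against RFP, from 0.834 to 0.981 between GFP High and GFP Low, and stood at 1.00 for GFP Low against RFP. The 2 genes of the first comparison fell to 0 when any 1 of GFP High 1, RFP 2, RFP 3 and GFP High 3 was left out, and the last comparison called 1 gene without GFP High 3.

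**Figure D4:**
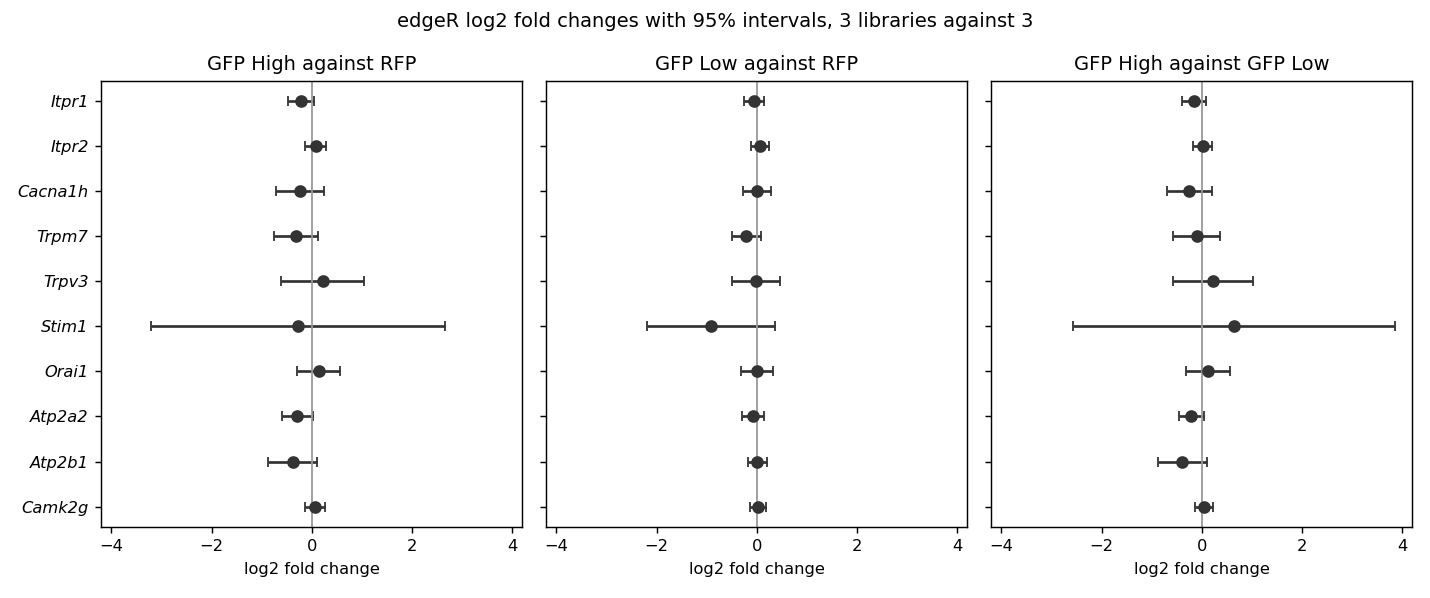
edgeR log2 fold changes of the 10 genes in the 3 comparisons (points) with 95% intervals (bars), 3 libraries against 3. Every interval includes 0; the narrowest belong to Itpr2 and Camk2g and the widest to Stim1.

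In GFP High against RFP, 6 of 10 members had a log2 fold change below 0 and the median was -0.22, where 7515 of 14829 genes were below 0 with a median of -0.01. In GFP Low against RFP, 5 of 10 were below 0 with a median of 0.00 (-0.00274), beside -0.00409 over all genes. In GFP High against GFP Low, 5 of 10 were below 0 with a median of -0.04, beside -0.00479 over all genes. The first and second comparisons share the RFP libraries, and the first and the last share GFP High. Leaving Stim1 aside, the 95% intervals of the 9 other members allowed folds between 0.548 and 2.06 over the 3 comparisons, and between 0.708 and 1.38 in GFP Low against RFP. Thus differences larger than these lay outside the intervals, and smaller ones were not resolved.

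Spread between replicates was widest in GFP High. The median coefficient of variation of the members' CPM was 21.9% (GFP High), 6.92% (GFP Low) and 11.1% (RFP). Over 8923 genes with a mean of 5 to 500 CPM the medians were 18.04%, 9.76% and 10.6%, in the same order. GFP High had the largest coefficient for 9 of 10 members (all but Itpr2), and for 64.7% of those 8923 genes. Pools of GFP High held the fewest oocytes, and cumulus markers differed between libraries of a group. The part of either in the spread was not tested.

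Of 89 further genes listed by role, 88 were matched, and 71, 71 and 69 were tested in the 3 comparisons. None passed the adjusted threshold in edgeR, DESeq2 or limma-voom. At an unadjusted p under 0.05, edgeR counted 0, 1 and 2 of them, DESeq2 4, 1 and 2, and limma-voom 0, 2 and 2. In GFP High against RFP, 35 of 71 were above 0, with a median of -0.02 on the log2 scale.

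Upstream of release, the phospholipases Plce1 and Plcg2 had 24.4 and 10.8 FPKM. The sperm enzyme Plcz1 was not matched and is not analysed here. Apart from the members, the release channels were low, with Ryr3 at 0.695 and Itpr3 at 0.422 FPKM. Of the other clearance genes Atp2c1, the calcium pump of the Golgi, had 24.4 FPKM. Of the store proteins, Calr (calreticulin, the main calcium buffer of the store) had 224.5 FPKM and Canx (calnexin, a chaperone) 119.3. Of the decoders, Calm2, which encodes calmodulin, had 757.9 FPKM. Wee2, a kinase that CaMKII acts on at egg activation, had 112.3 FPKM, and Mapk3, of the kinase pathway that holds metaphase arrest, 77.1. For the cortical granules, Astl, the protease that hardens the zona, had 114.1 FPKM, and Nsf, of the membrane fusion machinery, 45.0. None of these passed the test in any comparison. Their log2 fold changes in GFP High against RFP ran from -0.30 for Itpr3 to 0.13 for Astl, with Plce1 at 0.01, Calr at 0.03 and Wee2 at 0.07.

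The further genes with the smallest p-values also missed the threshold. Mos, the kinase that starts the arrest pathway, had 85.5, 90.9 and 76.3 CPM (GFP High), 65.3, 61.3 and 62.0 (GFP Low) and 70.2, 73.5 and 66.1 (RFP). Its GFP High libraries lay above every other library, but the log2 fold change of 0.42 (SE 0.12) over GFP Low did not pass (edgeR adjusted p = 0.998). Replicates failed to overlap for 11.8% of all genes tested, and for 7 of the 71 further genes, in GFP High against RFP. Between GFP High and GFP Low it was 11.5%, and 5 of 69. Cdc20, the activator of the anaphase-promoting complex, had a log2 fold change of 0.33 in the same comparison (SE 0.14, adjusted p = 0.998), and Mcu, the mitochondrial uniporter, of -0.17 (SE 0.10, adjusted p = 0.998). Micu2, a regulator of the uniporter, had a log2 fold change of -0.20 (SE 0.10) and the phospholipase Plcb3 of -0.49 (SE 0.28) in GFP Low against RFP. In GFP High against RFP, Plcb3 was at -0.75 (SE 0.35), and Prkca, a protein kinase C, was counted 3, 0 and 1 times in GFP High against 13, 16 and 14 in RFP.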

How the data were processed

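Per the labels' protocols, poly-A RNA of pooled oocytes was fragmented, primed with random hexamers and read from both ends. fastp, HISAT2 2.0.5, featureCounts 1.5.0-p3, DESeq2 1.20.0 and mm10 are named in the submitters' processing notes, with no settings. The authors deposited 3 tables, 1 per pair of groups, with raw counts, a normalised signal (counts divided by size factors), FPKM, log2 fold changes and p-values. Counts were joined by gene (0 set for 178 genes that a table lacks) and FPKM recomputed from them. Each pair was tested with edgeR 4.0.16 (R 4.3.3; filterByExpr, TMM, glmQLFit and glmQLFTest, no covariate) over all genes of its table, with Benjamini-Hochberg adjustment and a threshold of 0.05. Intervals are 95%, from the quasi-likelihood F. CPM were scaled by TMM over 9 libraries. Family shares were tested by exact permutation. The fits were tested on simulated data. Alternatives used DESeq2 1.42.0 and limma 3.58.1. A count of 3 was the limit of detection; reads carry no molecular identifiers, so such limits cover counting error only. Libraries held 19381677 to 27746256 counts. Replicate pairs of a group differed beyond sampling noise (chi-square per degree of freedom 13.8 to 57.6), and each library was entered as 1 replicate. That spread does not show that the pools came from separate animals.

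Poly-A capture depends on tail length, which eggs regulate for stored mRNAs. Coordinates match GENCODE M21 (GRCm38) for the 10 members and for the other matched genes listed by role except Plcb3, Trpm6 and Slc8a1. The printed sequence is from RefSeq. The members and lists were chosen with earlier results of these data known. Besides the 10 members, the text names the 2 highest genes by FPKM of each role and the 3 smallest p-values of each comparison, of which some are not reported here; Gm44087 and Gm2479, and the marker genes printed, were chosen after their values were seen.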

Additional observations from a re-analysis of the deposited data

How the results depend on the processing

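No member passed the threshold under any alternative run in any comparison. Over all genes, the 2, 3 and 0 calls of GFP High against RFP, of GFP Low against RFP and between the GFP groups became 16, 34 and 16 without a filter on low counts and 12, 10 and 4 with DESeq2, and the first 2 became 1 and 1 with limma-voom. Leaving out 1 library gave 0 to 2, 2 to 3 and 0 to 1 (0 calls with GFP High 1, RFP 2, RFP 3 or GFP High 3 left out of the first, and 1 with GFP High 3 left out of the last). Same-numbered libraries did not deviate together (correlations of deviations from -0.106 to 0.12). With the replicate block the calls were 4, 3 and 0 genes, and 0 members in each. Orai1 turned to -0.000143 without a filter (GFP Low against RFP). Stim1 between GFP High and GFP Low turned to -0.88 with limma-voom and -0.26 with the replicate block. Without 1 library in turn, in GFP High against RFP, Itpr1 ran from -0.33 to -0.15, Cacna1h from -0.49 to -0.068, Trpm7 from -0.52 to -0.15, Trpv3 from 0.012 to 0.53, Orai1 from -0.031 to 0.22 and Stim1 from -1.08 to 0.30. In GFP Low against RFP, Itpr1 ran from -0.11 to 0.021, Cacna1h from -0.088 to 0.15, Trpv3 from -0.18 to 0.21, Orai1 from -0.12 to 0.095, Atp2a2 from -0.17 to 0.045 and Atp2b1 from -0.032 to 0.032. Between GFP High and GFP Low, Itpr2 ran from -0.0098 to 0.042, Trpm7 from -0.31 to 0.058, Stim1 from -0.17 to 1.21, Orai1 from -0.038 to 0.25 and Camk2g from -0.028 to 0.073. Shares of raw counts, not divided by length, were 99.1% for Itpr1 with Itpr2, 99.5% for Camk2g, 71.1% for Atp2b1 and 1.71% for Stim1. Limiting families to genes with a mean of at least 10 counts left the SERCA pumps with 1 gene, so no share was computed for them. The cause of these moves was not tested.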

Other observations

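Mcub, the paralog that damps the mitochondrial calcium uniporter, and Mcu, its pore, took opposite orders in counts and per length. In CPM Mcub was the lower in every library, with means of 85.0 against 162.4. Divided by the deposited gene lengths of 1318 and 6936 bases, Mcub was the higher in 9 of 9, at 64.5 against 23.4 FPKM. The order per length thus rests on those lengths. Micu2 had 36.3 FPKM. Atp2b3, better known from the nervous system, had 3.84 FPKM, and Atp2b1 was 1.08 to 2.22 times as high.

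Gm44087 is annotated on the plus strand inside an intron of Itpr2 (chromosome 6, 146376417 to 146378186, GRCm38) as a transcript still to be experimentally tested. It was counted 2356 to 4019 times per library and shares 0 exon bases with Itpr2. Per length its level was 5.03 to 7.16 times that of Itpr2 in the same library, with a mean of 73.7 FPKM. The ratio of Trpv3 to Trpv2 in FPKM was 0.430 for GFP High 1, 0.986 for GFP Low 3, and between 1.31 and 5.35 in the other 7 libraries.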
